A study of Mus musculus with 6 samples.

Results

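The energy enzymes and myoglobin of muscle were followed as 9 genes, chosen by their symbol from the 38924 genes of the deposited table, and all 9 were found. They are the creatine kinases Ckm, Ckb, Ckmt2 and Ckmt1, the adenylate kinase Ak1, the AMP deaminase Ampd1, the glycogen phosphorylase Pygm, the oxygen carrier myoglobin (Mb) and the fatty acid carrier Fabp3. The question asked of them was how far induced muscle progenitors and activated satellite cells carry the energy enzymes of mature muscle, relative to the resting stem cell of muscle and to fibroblasts.

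Creatine kinases move phosphate between ATP and creatine, so that a fibre can restore ATP within moments of a contraction. Ckm and Ckb encode the cytosolic muscle and brain subunits, and Ckmt2 and Ckmt1 the mitochondrial forms of striated muscle and of other tissues. Adenylate kinase and AMP deaminase act next to them on the remaining ADP and AMP, Pygm releases glucose phosphate from glycogen, Mb stores oxygen, and Fabp3 carries fatty acids to the mitochondria. During the maturation of muscle the brain subunit of creatine kinase gives way to the muscle subunit, and Ckm, Mb and Pygm are textbook products of the differentiated fibre.

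RNA-seq counts were given for 6 mouse libraries in 5 groups. Induced myogenic progenitor cells (iMPCs), obtained by reprogramming fibroblasts, were sorted by a nuclear green fluorescent reporter of Pax7 into Pax7-nGFP+ cells (Pax7+ iMPCs, n = 1) and Pax7-nGFP- cells (Pax7- iMPCs, n = 1). Activated satellite cells (ASC, n = 1, titled Pax7-plus and p1), mouse embryonic fibroblasts (MEFs, n = 1) and quiescent satellite cells (QSC, n = 2, mouse 1 and mouse 3) completed the set. Expanded iMPC cultures were held off doxycycline in a medium with 5 µM forskolin, 5 µM RepSox and 3 µM of a GSK3 inhibitor, per the labels' protocols. Whether the starting fibroblasts of these cultures were embryonic or from the tail tip is not stated in the labels, and the medium of the ASC and MEF libraries is not given in the sources used here, nor are strain, age or whether several animals were pooled. Every p-value below rests on the spread between the 2 QSC mice, and each lone library was assumed to vary as they do.

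The promoters of Ckm, Pygm, Mb and Ckb are shown because Ckm, Pygm and Mb are the textbook genes of the differentiated fibre, and Ckb is the non-muscle counterpart of Ckm. Each is the 250 bases before a RefSeq gene start in GRCm38.p6, on the strand of the gene, and capitals mark matches to CAGCTG (the E-box form often bound by Myod1 and Myog), to CAAAATAG, an A/T-rich element, and to the MEF2 consensus.
Ckm, chr7:19410844-19411093, + strand: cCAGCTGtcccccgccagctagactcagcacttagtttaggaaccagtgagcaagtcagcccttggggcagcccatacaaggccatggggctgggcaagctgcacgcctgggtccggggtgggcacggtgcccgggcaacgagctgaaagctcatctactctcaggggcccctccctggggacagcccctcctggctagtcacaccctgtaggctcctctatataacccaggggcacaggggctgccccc
Pygm, chr19:6384158-6384407, + strand: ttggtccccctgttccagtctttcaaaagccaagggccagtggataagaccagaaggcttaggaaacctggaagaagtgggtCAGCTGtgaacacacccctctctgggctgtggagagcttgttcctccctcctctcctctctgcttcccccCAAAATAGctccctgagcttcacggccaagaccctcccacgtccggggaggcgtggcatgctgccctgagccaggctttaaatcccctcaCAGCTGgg
Mb, chr15:77022728-77022977, - strand: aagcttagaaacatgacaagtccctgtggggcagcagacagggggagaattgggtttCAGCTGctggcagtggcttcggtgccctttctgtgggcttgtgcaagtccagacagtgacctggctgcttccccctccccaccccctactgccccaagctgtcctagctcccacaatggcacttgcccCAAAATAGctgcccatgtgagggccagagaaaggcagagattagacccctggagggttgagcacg
Ckb, chr12:111672339-111672588, - strand: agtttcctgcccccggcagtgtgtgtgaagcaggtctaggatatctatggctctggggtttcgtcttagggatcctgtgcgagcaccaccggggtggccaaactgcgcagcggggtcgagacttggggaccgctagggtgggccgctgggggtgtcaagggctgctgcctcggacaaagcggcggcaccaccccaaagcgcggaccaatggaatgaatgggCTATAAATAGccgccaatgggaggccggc
Pygm held 2 matches to CAGCTG, 168 and 8 bases before its start, and CAAAATAG at 98 bases. Mb, shown at the one of its 3 listed starts that carried CAAAATAG, had that motif 65 bases and CAGCTG 193 bases before the start, and Ckm had CAGCTG at 249 bases. Ckb had no match to CANNTG, the general E-box; its MEF2 match at 29 bases overlaps its TATAAA at 28 bases, so the same letters count for both. Both strands were searched, and of 32851 such RefSeq windows, 66.2% held CANNTG, 13% held CAGCTG, 12.4% held TATAAA, 2.92% held the MEF2 consensus and 0.81% held CAAAATAG, which was picked after the promoters had been read. A start was listed for 8 of the 9 genes. CAGCTG also stood in Ckmt2, 107 bases before its start, at 177 and 227 bases before 2 of the 4 starts of Ak1, and 133 bases before another start of Mb. No other listed start held CAAAATAG or the MEF2 consensus.

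Library totals lay between 20859611 and 29279686 counts, and 18309 to 19545 genes had at least 1 count. Levels are CPM, counts scaled to library size with TMM factors, unless RPKM (per kilobase of gene as well) is stated. TMM factors were 1.11 to 1.21 in the other 4 libraries, against 0.717 and 0.763 in QSC, so values against QSC lean on this scaling: library size alone moves the median log2 difference of all genes by 0.56 to 0.68. Satellite cell markers summed to 2123, 1130 and 1464 CPM in Pax7+ iMPCs, Pax7- iMPCs and ASC and to 380 CPM in MEFs, against 5286 and 4628 CPM in QSC. In Pax7+ iMPCs Cdh15 and Itga7, at 962 and 724 CPM, made most of that sum. Of the 12 markers none rose against QSC (edgeR adjusted p under 0.05). In Pax7+ iMPCs, Pax7- iMPCs, ASC and MEFs 8, 9, 7 and 12 fell, beside 9.31%, 6.57%, 8.24% and 8.03% of all tested genes. The 18 listed sarcomere genes, which mark differentiated muscle, summed to 29690 CPM in the library labelled activated satellite cells, against 257.5 and 83.4 CPM in QSC. Mouse 1 exceeded mouse 3 in erythroid (1300 against 20.1 CPM), proliferation (200 against 8.37 CPM), endothelial (210.2 against 57.8 CPM) and immune markers (222 against 83.5 CPM). The mice also differed in Xist (0.0954 and 530.1 CPM) and Ddx3y (455 and 0.226 CPM). In Pax7+ iMPCs, Pax7- iMPCs, ASC and MEFs Xist was at 39.1, 24.7, 0.0431 and 41.9 CPM. Ddx3y was at 0, 0.135, 85.2 and 0.112 CPM there, so ASC lay with mouse 1 and the iMPCs and MEFs with mouse 3. The part of these differences in the results was not tested.

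Against QSC the rises in ASC and the falls in MEFs stood out from the shares of all genes. The 1 rise in each iMPC fraction and in MEFs lay near those shares. In ASC 7 of 9 rose and none fell, beside 11.8% of all 17116 tested genes that rose and 8.24% that fell (20.1% in either direction). Their median log2 difference was 4.13 (3.84 with genes at 0 counts set to their bound), against 0 for all genes. In Pax7+ iMPCs 1 rose, Ak1, and 2 fell, Mb and Fabp3, beside 11.3% and 9.31% of all genes (20.6% in either direction), with a median of -1.48 against -0.03. In Pax7- iMPCs Ak1 rose and no member fell, beside 12.1% and 6.57% (18.6% in either direction), with a median of 0.24 against 0.15. In MEFs Ak1 rose and 4 fell, Ckm, Ampd1, Pygm and Mb, beside 11.3% and 8.03% (19.4% in either direction), with a median of -4.90 (-2.25 at the bound) against 0. Counted by size instead, as at least a 4-fold difference on log2 CPM with 5 CPM or more in the higher group, 1 member was higher and 1 lower in Pax7+ iMPCs (9.78% and 9.65% of all genes), 2 and 0 in Pax7- iMPCs (11% and 7.73%), 8 and 0 in ASC (11.1% and 8.83%) and 1 and 1 in MEFs (10.8% and 8.73%). All 9 genes passed the expression filter, Ckmt1 through the Pax7+ iMPC library alone, where it had 12 counts. The 4 comparisons share the QSC libraries, and in bulk RNA fewer cells of a type and less RNA per cell cannot be told apart.

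**Figure D1:**
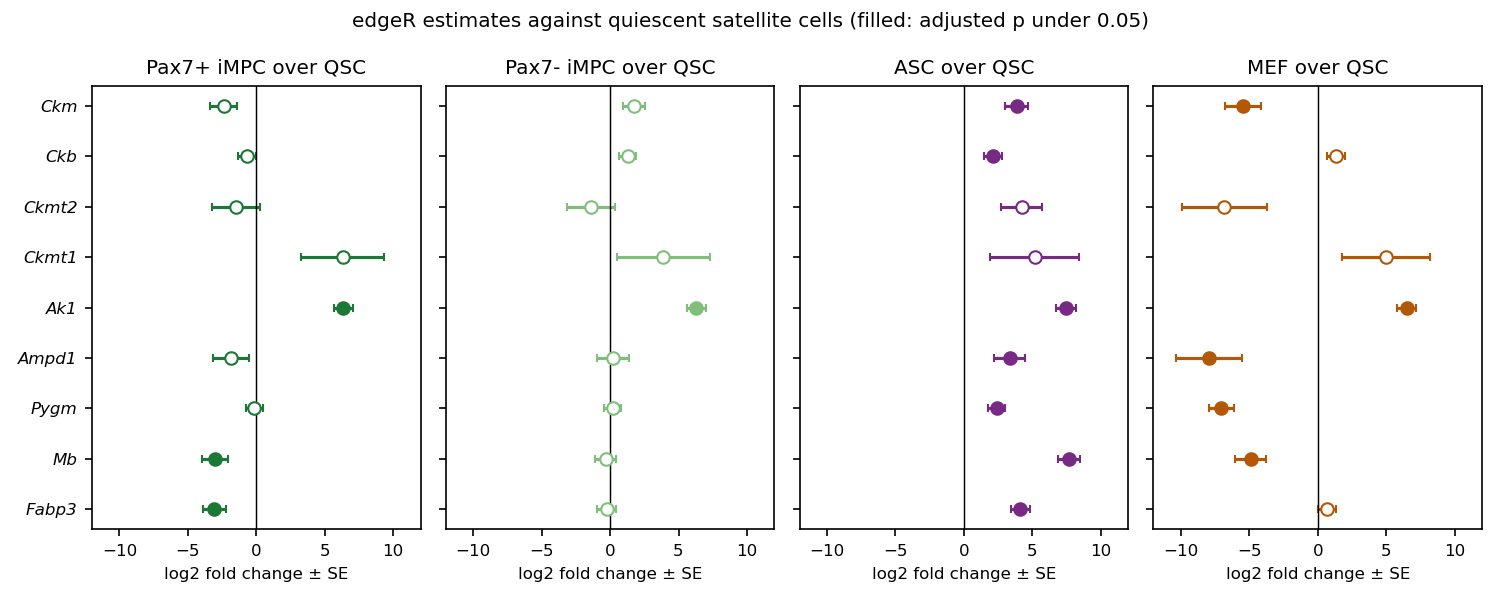
Log2 fold change with its standard error (edgeR, x axis) of the 9 genes in Pax7+ iMPCs, Pax7- iMPCs, ASC and MEFs, each against QSC (n = 2); filled points have an adjusted p under 0.05. Ak1 lies to the right in all 4 panels, 7 genes are filled and to the right in ASC, and Ckm, Ampd1, Pygm and Mb are filled and to the left in MEFs.

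Ckm (ENSMUSG00000030399), the muscle creatine kinase subunit, stood at 0.676 CPM in Pax7+ iMPCs, 12.1 CPM in Pax7- iMPCs, 51.1 CPM in ASC and 0.0747 CPM in MEFs, against 5.63 and 1.49 CPM in QSC. ASC lay above both QSC mice and every other library, Pax7- iMPCs above both mice, and Pax7+ iMPCs and MEFs below both. In ASC it rose by 3.84 ± 0.84 on the log2 scale (SE; edgeR quasi-likelihood, Benjamini-Hochberg adjusted p = 0.00375), which was 3.17 against mouse 1 alone and 5.03 against mouse 3 alone. In MEFs, with 2 counts, it fell by 5.48 ± 1.31 (edgeR adjusted p = 0.00707), with -5.22 against mouse 1 and -3.36 against mouse 3. Neither iMPC difference passed the test: the estimate was -2.39 ± 1.00 in Pax7+ iMPCs (edgeR adjusted p = 0.101) and 1.76 ± 0.82 in Pax7- iMPCs (edgeR adjusted p = 0.146).

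Ckb (ENSMUSG00000001270), the brain-type subunit that precedes Ckm in developing muscle, was the abundant creatine kinase of all 6 libraries. It reached 48.4 CPM in Pax7+ iMPCs, 187 CPM in Pax7- iMPCs, 335 CPM in ASC and 195.0 CPM in MEFs, against 113 and 41.4 CPM in QSC. Pax7+ iMPCs lay between the QSC mice and the other 3 groups above both. Only the ASC value passed the test, with a rise of 2.11 ± 0.64 (edgeR adjusted p = 0.0257; 1.56 and 3.01 by mouse). Per kilobase, Ckb exceeded Ckm 68.6-fold in Pax7+ iMPCs, 14.8-fold in Pax7- iMPCs, 6.27-fold in ASC and 2500-fold in MEFs, against 19.3-fold and 26.5-fold in QSC.

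The Ckm share of the summed Ckm and Ckb RPKM gives the isoform balance within a library, where scaling cancels. It was 1.44% in Pax7+ iMPCs (95% exact binomial interval 0.892 to 2.19), 6.32% in Pax7- iMPCs (5.70 to 6.98), 13.8% in ASC (13.0 to 14.5) and 0.04% in MEFs (0.00485 to 0.144), against 4.93% (4.10 to 5.87) and 3.63% (2.51 to 5.06) in QSC. The Pax7+ iMPC interval lay below those of both QSC mice and the ASC interval above them, whereas the Pax7- iMPC interval overlapped that of mouse 1. These intervals cover counting error within a library only, not the spread between animals or cultures. In no library was the muscle subunit the larger part.

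**Figure D2:**
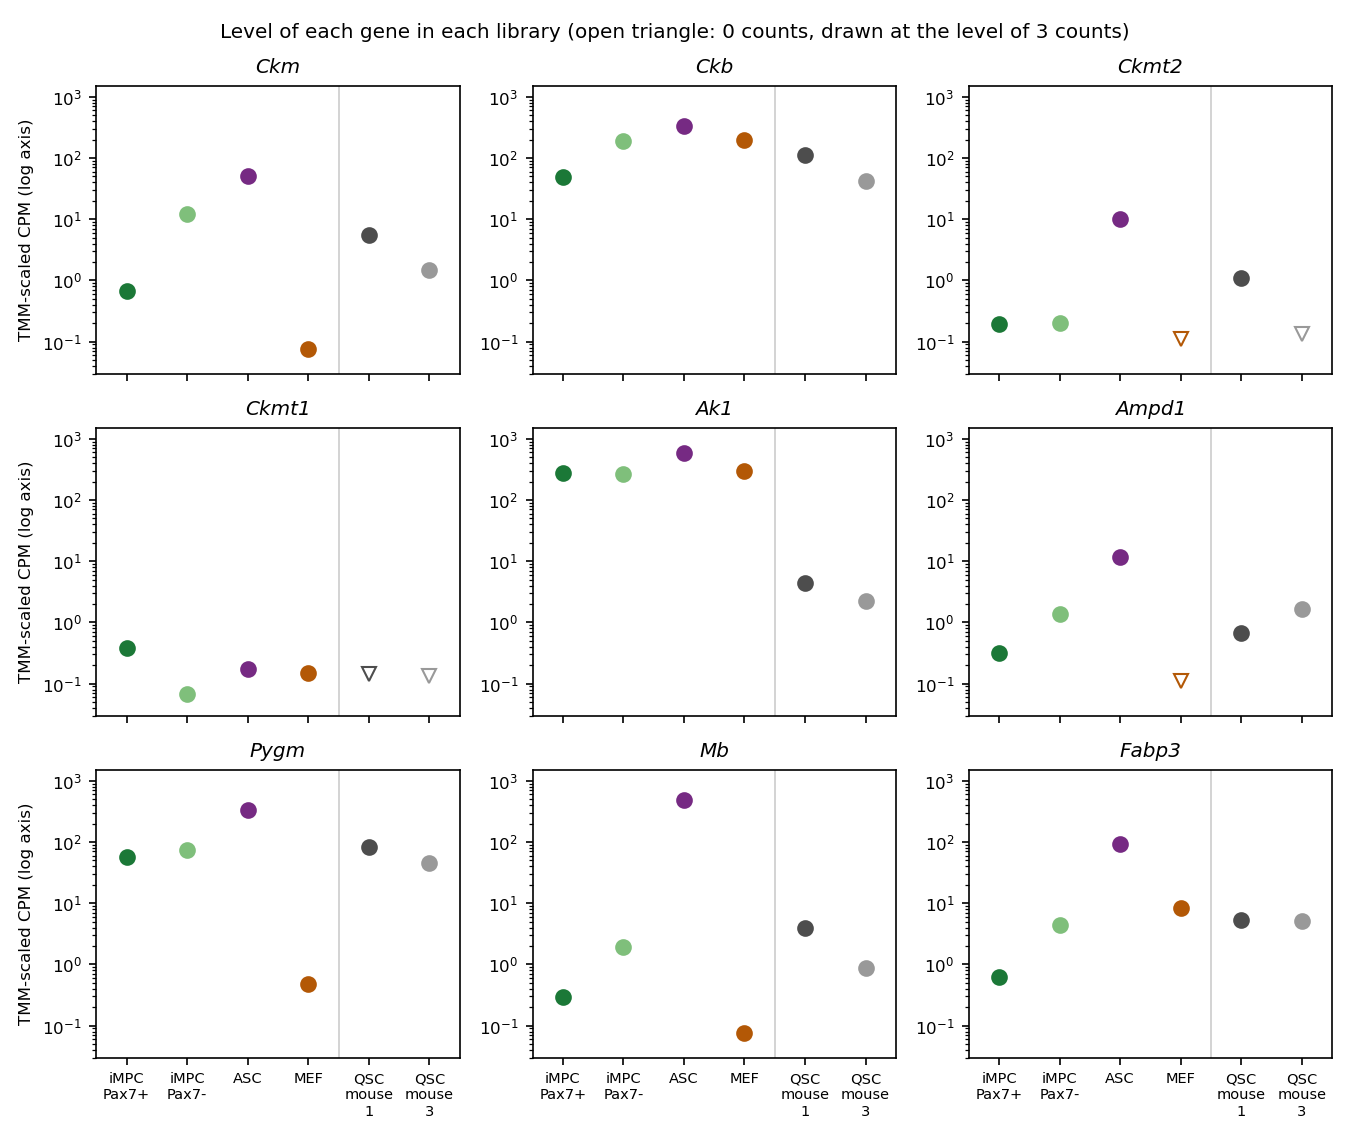
TMM-scaled CPM (log axis) of each of the 9 genes in each of the 6 libraries, 1 point per library; an open triangle is a library with 0 counts, drawn at the level of 3 counts. ASC is the highest library for 8 of the 9 genes, Ak1 separates the QSC pair from all other libraries, and Pygm separates MEFs from all others.

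The mitochondrial creatine kinases were scarce. Ckmt2 (ENSMUSG00000021622), the sarcomeric form, had 6 counts in Pax7+ iMPCs, 6 in Pax7- iMPCs, 236 in ASC (10.2 CPM) and 0 in MEFs, against 23 and 0 in QSC; a count of 0 allows up to 0.112 CPM in MEFs and 0.136 CPM in mouse 3. ASC was 3.12 above mouse 1 on the log2 scale, but its edgeR estimate of 4.21 ± 1.49 missed the threshold (adjusted p = 0.0549). Ckmt1 (ENSMUSG00000000308), the ubiquitous form, had 12, 2, 4 and 4 counts in Pax7+ iMPCs, Pax7- iMPCs, ASC and MEFs, against 0 and 0 in QSC, and no difference passed the test. At these depths Ckmt1 was near the limit of detection in every library. Ckmt2 passed in ASC with no filter on low counts (edgeR adjusted p = 0.00674) and with only QSC and ASC in the fit (edgeR adjusted p = 0.031).

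Ak1 (ENSMUSG00000026817), the cytosolic adenylate kinase that turns 2 ADP into ATP and AMP, was the member that rose in all 4 comparisons. It stood at 271 CPM in Pax7+ iMPCs, 261 CPM in Pax7- iMPCs, 585 CPM in ASC and 303 CPM in MEFs, against 4.39 and 2.26 CPM in QSC. The groups did not overlap, and the lowest of the 4 libraries stood 5.87 above the higher QSC mouse on the log2 scale. The rises were 6.35 ± 0.68 in Pax7+ iMPCs (edgeR adjusted p = 1.87e-05), 6.29 ± 0.68 in Pax7- iMPCs (edgeR adjusted p = 1.24e-05), 7.46 ± 0.71 in ASC (edgeR adjusted p = 2.78e-06) and 6.51 ± 0.69 in MEFs (edgeR adjusted p = 1.02e-05). Fibroblasts carried Ak1 at a level close to that of the iMPCs, of which the Pax7+ fraction was 1.12-fold below MEFs (95% counting interval 1.08 to 1.15). Proliferation markers also separated QSC, at 1733, 783, 814 and 1048 CPM in Pax7+ iMPCs, Pax7- iMPCs, ASC and MEFs against 200 and 8.37 CPM in QSC. All 10 reached 1 CPM in every library except mouse 3, where 3 did, and their part in the result was not tested.

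Ampd1 (ENSMUSG00000070385), the AMP deaminase of fast muscle fibres and the entry of the purine nucleotide cycle, was low throughout. It had 0.322 CPM in Pax7+ iMPCs, 1.39 CPM in Pax7- iMPCs, 11.9 CPM in ASC and 0 CPM in MEFs, against 0.668 and 1.67 CPM in QSC. ASC alone stood clear of the QSC mice on the upper side, with a rise of 3.33 ± 1.14 (edgeR adjusted p = 0.047; 4 and 2.77 by mouse). MEFs had no count where 3 would allow 0.112 CPM, were at least 10.6-fold lower than QSC, and passed the test (edgeR adjusted p = 0.0286). The ASC call was lost under DESeq2-style size factors (edgeR adjusted p = 0.0632), library size scaling (0.0637), a filter of 5 CPM (0.0978) and DESeq2 (0.106).

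Pygm (ENSMUSG00000032648), the muscle glycogen phosphorylase, was the member that QSC shared most with the cultured muscle cells. It had 57.7 CPM in Pax7+ iMPCs, 73.4 CPM in Pax7- iMPCs, 336 CPM in ASC and 0.486 CPM in MEFs, against 83.1 and 45.6 CPM in QSC. Both iMPC fractions lay between the QSC mice, with edgeR estimates of -0.16 ± 0.62 in Pax7+ iMPCs (adjusted p = 0.887) and 0.19 ± 0.61 in Pax7- iMPCs (adjusted p = 0.862); a p that misses the threshold does not show that the levels are equal. ASC rose by 2.38 ± 0.59 (edgeR adjusted p = 0.00883; 2.01 and 2.88 by mouse). MEFs, with 13 counts, fell by 7.04 ± 0.93 (edgeR adjusted p = 7.02e-05), the largest fall among members with a count in both groups.

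Mb (ENSMUSG00000018893), which stores oxygen in heart and oxidative fibres, had the widest range of the 9 genes. It had 0.290 CPM in Pax7+ iMPCs (9 counts), 1.89 CPM in Pax7- iMPCs (56 counts), 490.5 CPM in ASC (11387 counts) and 0.0747 CPM in MEFs (2 counts), against 3.91 and 0.859 CPM in QSC (82 and 19 counts). ASC stood far above every other library, Pax7- iMPCs lay between the QSC mice, and Pax7+ iMPCs and MEFs lay below both. ASC rose by 7.68 ± 0.82 (edgeR adjusted p = 6.51e-06), by 6.94 against mouse 1 and 9.03 against mouse 3. Pax7+ iMPCs fell by 3.02 ± 0.94 (edgeR adjusted p = 0.0301), with -3.44 against mouse 1 and -1.35 against mouse 3, so mouse 1 carries most of the difference. MEFs fell by 4.90 ± 1.15 (edgeR adjusted p = 0.00632), with -4.71 against mouse 1 and -2.62 against mouse 3. Library size scaling ended the MEF calls of Ckm, Ampd1 and Mb (edgeR adjusted p = 0.0696, 0.0857 and 0.0848), a fit of QSC and MEFs alone ended those of Ampd1 and Mb (0.062 and 0.0657), and the filter of 5 CPM that of Ampd1 (0.0519).

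Fabp3 (ENSMUSG00000028773), the heart-type fatty acid binding protein, had nearly the same level in both QSC mice. It stood at 0.611 CPM in Pax7+ iMPCs (19 counts), 4.42 CPM in Pax7- iMPCs, 91.1 CPM in ASC and 8.22 CPM in MEFs, against 5.25 and 5.16 CPM in QSC. Pax7+ iMPCs were thus lowest of all, and fell by 3.08 ± 0.83 (edgeR adjusted p = 0.0148; -2.95 and -2.92 by mouse). ASC rose by 4.13 ± 0.68 (edgeR adjusted p = 0.000392; 4.10 and 4.12 by mouse). The Mb and Fabp3 calls in Pax7+ iMPCs were lost under library size scaling (edgeR adjusted p = 0.175 and 0.0706) and with only QSC and that library in the fit (0.166 and 0.0644). The pseudogene Fabp3-ps1 had 0, 5, 70 and 7 counts in Pax7+ iMPCs, Pax7- iMPCs, ASC and MEFs, against 10 and 6 in QSC, and reads of the gene and its copy may have been split.

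Some members share their locus with another gene in GENCODE vM21. An antisense or opposite-strand gene overlaps Ckm (A930016O22Rik), Ckmt2 (1700119I11Rik), Ckmt1 (Strc), Mb (Gm49540, Apol6) and Fabp3 (Gm10570, Zcchc17), and short same-strand genes lie within Ampd1. The libraries were made with a strand-marking kit per the labels, but whether counting used the strand is not given in the sources used here, so those counts may include the partner. Ckb, Ak1 and Pygm have no overlapping gene there.

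Set beside their own gene families, the muscle forms were the main transcript in ASC for glycogen phosphorylase, globins and fatty acid binding proteins, and nowhere for creatine kinase or AMP deaminase. Pygm made 70.9%, 53.6%, 91.7% and 0.444% of summed glycogen phosphorylase RPKM in Pax7+ iMPCs, Pax7- iMPCs, ASC and MEFs, against 89.0% and 81.3% in QSC. The brain form Pygb made 96.7% in MEFs, and the liver form Pygl 22.7% in Pax7- iMPCs, against 3.99% and 3.64% in QSC. In both QSC libraries the muscle form was thus the main phosphorylase transcript. These libraries also held adult myofibre markers (162.6 and 100.5 CPM) and sarcomere markers (257.5 and 83.4 CPM), whose part in the Pygm share was not tested. Ampd1 made 0.458%, 2.59%, 16.1% and 0% of AMP deaminase RPKM in those 4 libraries, against 0.597% and 2.05% in QSC.

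Mb made 3.81%, 23.9%, 99.8% and 32.4% of the summed RPKM of Mb, cytoglobin (Cygb) and neuroglobin (Ngb) in Pax7+ iMPCs, Pax7- iMPCs, ASC and MEFs, against 57.4% and 26.9% in QSC. Cygb made 95.9% in Pax7+ iMPCs and 0.128% in ASC, against 32.2% and 68.1% in QSC. The MEF share rests on 2 counts of Mb and 10 of Cygb and says little. Among fatty acid binding proteins Fabp3 made 0.653%, 2.02%, 75.1% and 12.4%, against 1.85% and 8.65% in QSC. The leading form differed between groups: Fabp5, the epidermal type, made 98.8% in Pax7+ iMPCs, 89.8% in Pax7- iMPCs and 73.1% in MEFs, Fabp3 led in ASC, and Fabp4, the adipocyte and endothelial type, made 92.7% and 84.7% in QSC. Of 7 adipocyte markers, Fabp4 among them, 2 reached 1 CPM in each QSC library and Adipoq, Plin1, Lep and Cidec were at 0 in both, while the 10 endothelial markers summed to 31.5 to 81.6 CPM in the other 4 libraries, against 210.2 and 57.8 CPM in QSC, where 10 and 9 of them reached 1 CPM; their part in the Fabp4 level was not tested.

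**Figure D3:**
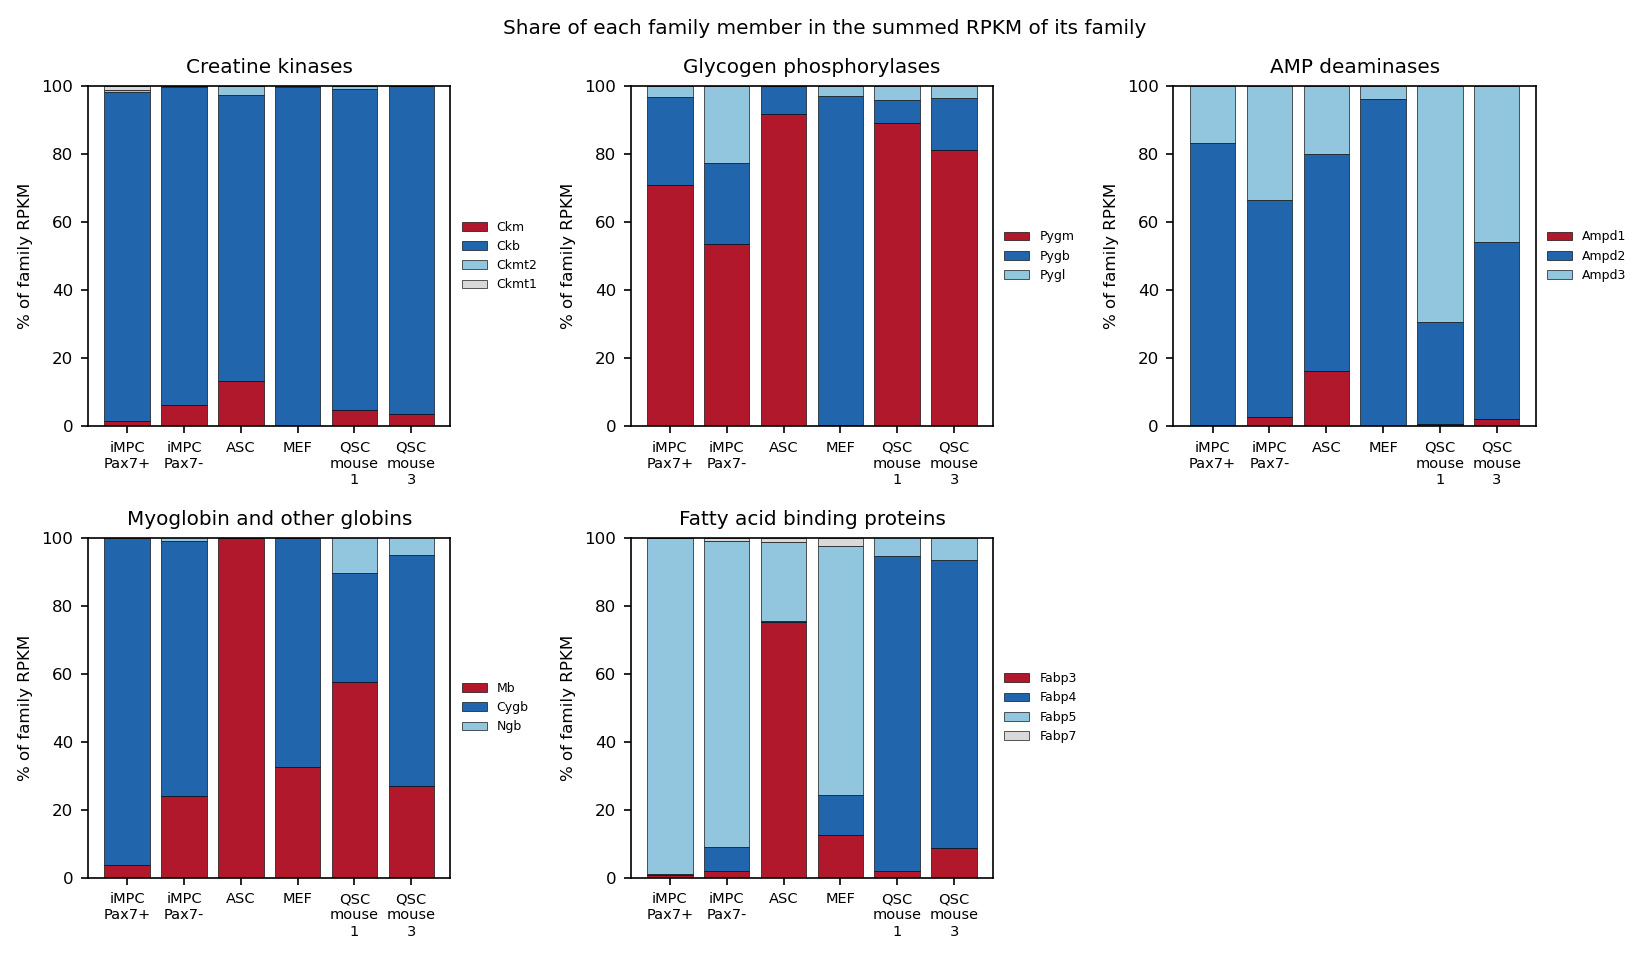
Share (%) of each gene in the summed RPKM of 5 families in each of the 6 libraries, 1 bar per library; red is the muscle form. Red is the largest part in ASC for glycogen phosphorylases, globins and fatty acid binding proteins, and for glycogen phosphorylases also in both iMPC fractions and both QSC mice, and for globins in QSC mouse 1.

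The iMPC fractions were compared with each other, with ASC and with MEFs library against library, with no replicates and no p-value, by the same 4-fold rule. Pax7+ against Pax7- iMPCs, 1 of 9 members was lower, Ckm, and none higher, beside 4.3% and 0.134% of all genes. Ckm was 17.8-fold lower in Pax7+ iMPCs (95% counting interval 11.5 to 29.2). Below the 5 CPM minimum, Fabp3 was 7.24-fold lower (4.45 to 12.4) Mb 6.53-fold lower (3.21 to 15.0) and Ampd1 4.30-fold lower (2.12 to 9.63) in Pax7+ iMPCs. Ckmt1 went the other way, 5.72-fold higher in Pax7+ iMPCs (1.27 to 52.6), on 12 and 2 counts. Ckb was 3.86-fold lower (3.65 to 4.09), while Pygm was 1.27-fold lower (1.20 to 1.36) and Ak1 1.04-fold higher (1.01 to 1.07). Between these 2 libraries Pygm and Ak1 thus lay close together and Ckm, Fabp3, Mb and Ckb lay apart, but the QSC mice, of 1 group, themselves differed 4.55-fold in Mb, 3.77-fold in Ckm and 2.74-fold in Ckb. Sarcomere markers summed to 1530 CPM in Pax7+ and 5625 CPM in Pax7- iMPCs and fibroblast markers to 2292 and 8755 CPM, and their part in these ratios was not tested.

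Against ASC, Pax7+ iMPCs were lower in 7 of 9 members and higher in none, beside 5.11% and 2.29% of all genes. Mb was 1694-fold lower (892 to 3706), Fabp3 149-fold (95.2 to 248) and Ckm 75.7-fold (49.3 to 123), whereas Pygm was 5.82-fold lower (5.53 to 6.13) and Ckb 6.92-fold (6.54 to 7.31). Pax7- iMPCs were lower than ASC in 6 of 9 and higher in none, beside 3.47% and 4.95% of all genes. There Mb was 259-fold lower (200 to 344) and Ckmt2 50.2-fold (22.7 to 138), but Ckm no more than 4.24-fold (3.77 to 4.79). Mb was therefore the member with the largest distance from ASC in both fractions. Ak1 was 2.16-fold lower in Pax7+ iMPCs (2.10 to 2.22) and 2.24-fold lower in Pax7- iMPCs (2.18 to 2.31).

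Against MEFs, the fibroblasts that stand for a possible starting cell, the muscle members divided. Pax7+ iMPCs were higher in 1 of 9, Pygm, and lower in 2, Ckb and Fabp3, beside 3.24% and 5.67% of all genes. Pax7- iMPCs were higher in 2 of 9, Ckm and Pygm, and lower in none, beside 4.73% and 2.38%. Pygm was 119-fold higher in Pax7+ iMPCs (69.2 to 223) and 151-fold higher in Pax7- iMPCs (88.2 to 284) than in MEFs, and Ckm 161-fold higher in Pax7- iMPCs (44.3 to 1337). In ASC 6 of 9 members were higher than in MEFs and none lower, beside 4.71% and 4.07%, with Mb 6563-fold higher (1816 to 54200), a ratio that rests on 2 MEF counts. Ckb and Ak1 were within 2-fold of MEFs in ASC, at 1.72-fold (1.66 to 1.78) and 1.93-fold (1.88 to 1.99) higher.

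**Figure D4:**
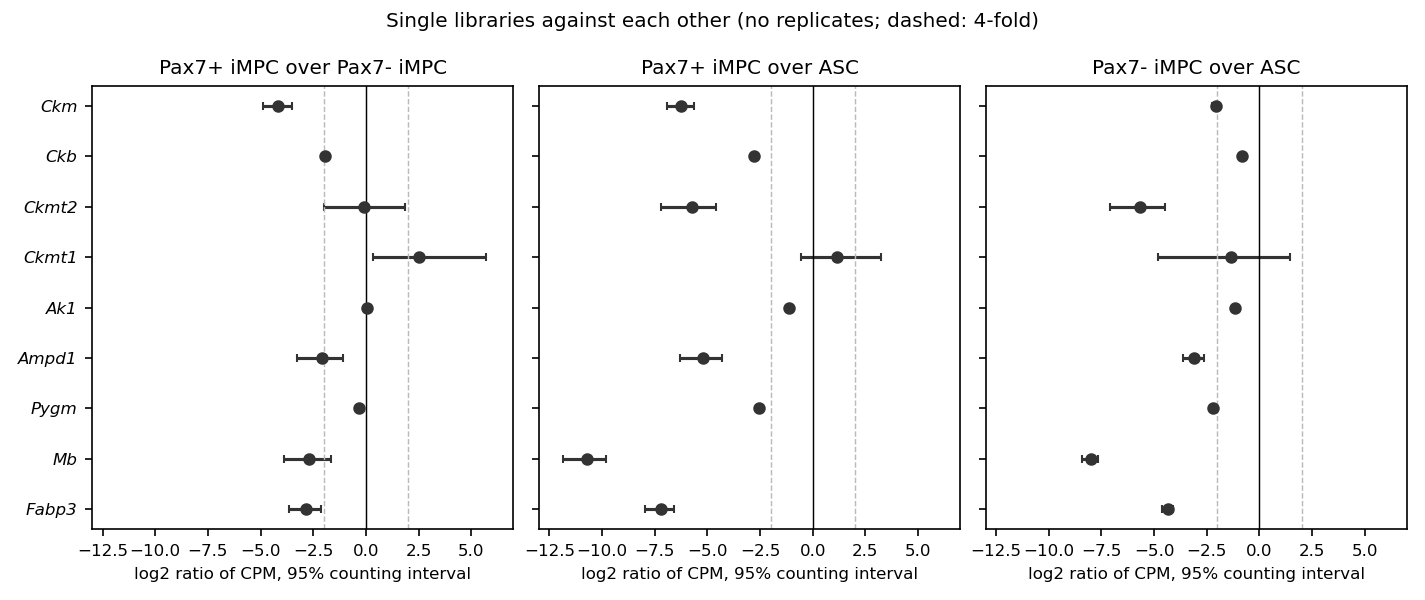
Log2 ratio of CPM with its 95% counting interval (x axis) of the 9 genes in Pax7+ over Pax7- iMPCs, Pax7+ iMPCs over ASC and Pax7- iMPCs over ASC, 1 library each; dashed lines mark 4-fold. Mb lies farthest to the left in both panels against ASC, and Ckm farthest to the left between the iMPC fractions.

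The contractile genes were called more widely than the energy genes in the iMPC fractions. Of 18 sarcomere genes 10 rose and 1 fell in Pax7+ iMPCs, and 17 rose in Pax7- iMPCs. In ASC 18 rose, and in MEFs 9 fell. Their medians were 1.98, 5.22, 7.37 and -2.81 in that order. Of all tested genes 11.3% rose and 9.31% fell in Pax7+ iMPCs, and 12.1% and 6.57% in Pax7- iMPCs. The shares were 11.8% and 8.24% in ASC and 11.3% and 8.03% in MEFs. In Pax7- iMPCs 1 of 9 energy members rose, near the share of all genes, beside 17 of 18 sarcomere genes. The difference between the lists was not tested. The sarcomere gene that fell in Pax7+ iMPCs, and the one that did not pass in Pax7- iMPCs, was Tcap, the titin cap of the Z-disc. It fell by 3.37 in Pax7+ iMPCs (edgeR adjusted p = 0.0172) and had an estimate of 0.08 in Pax7- iMPCs (edgeR adjusted p = 0.951), where Mb had a fall of 3.02 and an estimate of -0.33.

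Scaled to the summed sarcomere CPM of the same library, Mb stood at 0.189, 0.336, 16.5 and 1.24 CPM per 1000 sarcomere CPM in Pax7+ iMPCs, Pax7- iMPCs, ASC and MEFs, against 15.2 and 10.3 in QSC. Mb per unit of sarcomere message was thus close in ASC and the QSC mice, and far lower in both iMPC fractions. Ckm stood at 0.442, 2.14, 1.72 and 1.24, against 21.8 and 17.9 in QSC, so Pax7- iMPCs and ASC lay together below QSC. Pygm stood at 37.7, 13.0, 11.3 and 8.06, against 323 and 546 in QSC. Fabp3 stood at 0.4, 0.787, 3.07 and 136, against 20.4 and 61.8 in QSC. The MEF values rest on a sarcomere sum of 60.2 CPM. Those of the QSC mice rest on sums of 257.5 and 83.4 CPM, against 29690 CPM in ASC, and Mb had 82 and 19 counts in QSC. The sums also differ in make-up. Actc1 alone was 1084 of the 1530 CPM in Pax7+ iMPCs, but 62.5 and 1.67 CPM of the sums in QSC mouse 1 and mouse 3. Its part in these ratios was not tested.

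**Figure D5:**
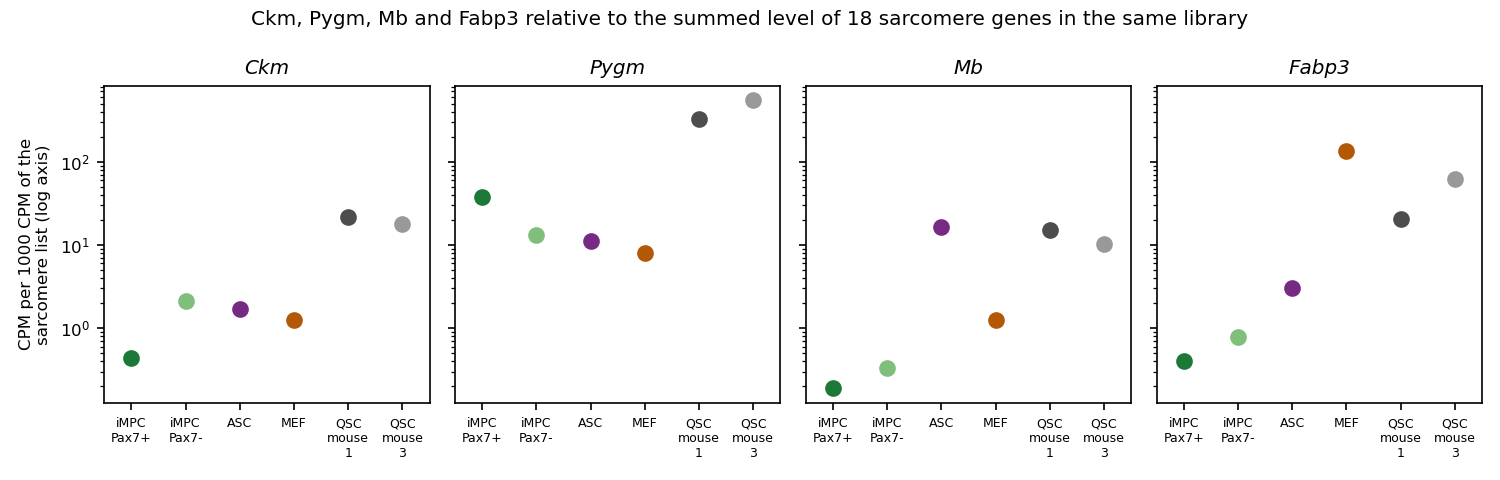
CPM of Ckm, Pygm, Mb and Fabp3 per 1000 CPM of the 18 sarcomere genes (log axis), 1 point per library. Mb in ASC (16.5) lies level with the QSC mice (15.2 and 10.3) and above both iMPC fractions (0.189 and 0.336), while Ckm and Pygm lie lower in all 4 other libraries than in QSC.

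The QSC mice themselves differed in most members. Mouse 1 was 4.55-fold above mouse 3 in Mb (2.74 to 7.94), 3.77-fold in Ckm (2.54 to 5.73), 2.74-fold in Ckb (2.54 to 2.96), 1.94-fold in Ak1 (1.36 to 2.80) and 1.82-fold in Pygm (1.69 to 1.97). Ampd1 went the other way, 2.51-fold lower in mouse 1 (1.32 to 5.02), and Fabp3 did not differ beyond counting error (ratio 1.02, 0.776 to 1.33). Adult myofibre markers were at 162.6 and 100.5 CPM in mouse 1 and mouse 3, and sarcomere markers at 257.5 and 83.4 CPM. Myod1 was at 1836 and 630 CPM and Myog at 189 and 4.07 CPM, whereas Pax7 went the other way, at 34.5 and 160 CPM. The part of these genes in the differences between the mice was not tested. With gaps smaller than the one between the mice, several neighbours in the order of levels cannot be separated. For Ckb and Ckmt2 this holds for every neighbour. For Ckm it holds for Pax7- iMPCs above mouse 1 and Pax7+ iMPCs below mouse 3. For Ak1 it holds for MEFs (303 CPM) and both iMPC fractions, and for Pygm and Ampd1 for both iMPC fractions and both mice. For Mb all neighbours below ASC are as close: mouse 1, Pax7- iMPCs, mouse 3, Pax7+ iMPCs and MEFs follow each other by 1.02 to 1.35 on the log2 scale, against 2.09 between the mice, although the fall in Pax7+ iMPCs passed the test. The place of Pax7+ iMPCs above MEFs rests on 9 and 2 counts, within counting error.

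Creatine is made and imported by the products of 3 further genes, of which Gatm, the enzyme of the opening step of creatine synthesis, rose in every muscle culture. Gatm was at 338 CPM in Pax7+ iMPCs, 242.5 CPM in Pax7- iMPCs, 266 CPM in ASC and 5.08 CPM in MEFs, against 41.2 and 10.9 CPM in QSC. It rose by 3.70 ± 0.69 (edgeR adjusted p = 0.00135), 3.22 ± 0.69 (edgeR adjusted p = 0.00359) and 3.35 ± 0.69 (edgeR adjusted p = 0.00236) in the muscle cultures and fell by 2.36 ± 0.80 in MEFs (edgeR adjusted p = 0.0477). Gamt, the enzyme of the closing step, and the creatine transporter Slc6a8 passed in none of the 4 comparisons. Slc6a8 had 15.2, 15.0, 29.3 and 24.2 CPM, against 26.8 and 37.1 CPM in QSC. Gatm was thus high in Pax7+ iMPCs, where Ckm was at 0.676 CPM; the QSC mice differed more in Gatm than these 3 libraries did.

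Among adenylate kinases other than Ak1, Ak5, a cytosolic form known from brain, rose in all 4 comparisons, with its highest level in MEFs, by 6.74 ± 1.01 (edgeR adjusted p = 0.000207). It had 2.80, 3.88, 3.83 and 30.5 CPM, against 0.381 and 0.181 CPM in QSC. Ak4, a mitochondrial form, rose in Pax7- iMPCs, by 2.12 ± 0.67 (edgeR adjusted p = 0.0353), and Ak3 passed in none of the 4. In the purine nucleotide cycle 5 genes other than Ampd1 were tested. Adssl1, the muscle adenylosuccinate synthase, rose in ASC by 4.34 (edgeR adjusted p = 0.000614) and had 1.22, 12.6, 63.0 and 3.03 CPM, against 4.01 and 2.22 CPM in QSC; like Ampd1, it was highest in ASC. Adsl, the lyase that follows it, rose in Pax7+ iMPCs by 1.87 (edgeR adjusted p = 0.0311). Ampd3, the deaminase of red blood cells, fell in Pax7+ iMPCs by 2.28 (edgeR adjusted p = 0.0305) and in MEFs by 4.30 (edgeR adjusted p = 0.00128), at 24.8 and 6.13 CPM, against 163 and 78.8 CPM in QSC; erythroid markers were high in mouse 1, and their part was not tested.

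Among 19 glycogen genes other than Pygm, 3 rose and 2 fell in Pax7+ iMPCs, 7 rose and 1 fell in Pax7- iMPCs, 8 rose and 1 fell in ASC and 4 rose and 1 fell in MEFs. Of all tested genes 11.3% rose and 9.31% fell in Pax7+ iMPCs, 12.1% and 6.57% in Pax7- iMPCs, 11.8% and 8.24% in ASC and 11.3% and 8.03% in MEFs, so the Pax7+ iMPC counts of this list lie near those of all genes. The muscle glycogen synthase Gys1 rose in all 4 and was at 68.2, 154, 175 and 62.2 CPM, against 8.06 and 16.3 CPM in QSC. Ppp1r3a, which targets a phosphatase to glycogen in muscle, was at 1.13 CPM in Pax7+ iMPCs, 2.53 CPM in Pax7- iMPCs and 13.8 CPM in ASC, with 0 counts in both QSC mice, which makes it at least 16.2-fold, 36.4-fold and 198-fold higher (edgeR adjusted p = 0.00909, 0.00325 and 0.000372). Pgm1, a phosphoglucomutase by its symbol in the files, fell in both iMPC fractions and ASC, with log2 changes of -2.3, -2.19 and -3.16, and Pgm2 rose in all 4 comparisons. Gys1 and Pgm2 thus rose in fibroblasts too, where Pygm was at 0.486 CPM.

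Of 9 muscle glycolytic genes 4 rose and 1 fell in ASC, 4 rose in Pax7- iMPCs, 1 rose and 1 fell in Pax7+ iMPCs and 1 fell in MEFs. Of all tested genes 11.8% rose and 8.24% fell in ASC, and 12.1% and 6.57% in Pax7- iMPCs. In Pax7+ iMPCs 11.3% rose and 9.31% fell, and in MEFs 11.3% and 8.03%. The Pax7+ iMPC and MEF counts of this list thus lie near those of all genes. Pgam2, the muscle phosphoglycerate mutase, had 4.60, 48.9, 308 and 1.46 CPM, against 1.19 and 0.407 CPM in QSC, and rose by 2.52 ± 0.67 in Pax7+ iMPCs, 5.93 ± 0.71 in Pax7- iMPCs and 8.59 ± 0.77 in ASC (edgeR adjusted p = 0.0134, 2.88e-05 and 1.59e-06). Eno3, the muscle enolase, rose by 2.51 ± 0.62 in Pax7- iMPCs (edgeR adjusted p = 0.00981) and by 5.67 ± 0.68 in ASC (edgeR adjusted p = 2.03e-05). Hk2, the insulin-responsive hexokinase, was at 25.7, 39.2, 19.9 and 23.1 CPM, against 62.7 and 169 CPM in QSC, and fell in Pax7+ iMPCs, ASC and MEFs. Pgam2, Eno3 and Pfkm were thus called in Pax7- iMPCs, where Ckm, Mb and Pygm were not, and the difference between these genes was not tested.

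Among 15 fatty acid genes other than Fabp3, 4 rose and 2 fell in Pax7+ iMPCs, 3 and 1 in Pax7- iMPCs, 5 and 2 in ASC and 3 and 3 in MEFs, beside 11.3% and 9.31%, 12.1% and 6.57%, 11.8% and 8.24%, and 11.3% and 8.03% of all genes in the same order. Cpt1b, the muscle carnitine palmitoyltransferase, rose in Pax7+ iMPCs by 3.34 ± 0.86 (edgeR adjusted p = 0.0109) and in ASC by 3.54 ± 0.86 (edgeR adjusted p = 0.00743), at 16.4 and 18.9 CPM, against 1.33 and 1.90 CPM in QSC. It was thus near the ASC level in the fraction where Fabp3 was lowest. Fabp4 fell in all 4 comparisons, with log2 changes of -8.69 in Pax7+ iMPCs and -8.85 in ASC (edgeR adjusted p = 0.000177 and 0.000118). Lpl, the lipoprotein lipase, kept 418 and 443 CPM in the iMPC fractions and had 12.9 CPM in ASC and 11.5 CPM in MEFs, against 298 and 357 CPM in QSC; the log2 changes in ASC and MEFs were -4.66 ± 0.79 and -4.83 ± 0.79 (edgeR adjusted p = 0.000486 and 0.00045). Of the other globins, Cygb fell in MEFs, by 3.79 (edgeR adjusted p = 0.0232), with 17.5, 14.3, 1.51 and 0.374 CPM, against 5.25 and 5.20 CPM in QSC.

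Among 10 genes of mitochondrial energy transfer, Vdac1, an outer membrane channel, rose in all 4 comparisons, at 332, 233, 254 and 205 CPM, against 63.0 and 62.6 CPM in QSC. Cox6a2, a heart and muscle subunit of cytochrome oxidase, rose in Pax7- iMPCs by 5.16 ± 0.90 (edgeR adjusted p = 0.000741). Its rise in ASC was 6.58 ± 0.93 (edgeR adjusted p = 0.0001). Cox8b, another muscle subunit, fell in Pax7+ iMPCs by 5.21 (edgeR adjusted p = 0.022), to 0.0644 CPM. Cox8b fell in MEFs too, where no count was found, and lay at least 22.8-fold below QSC. The QSC level of Cox8b was itself low, with 2.96 CPM in mouse 1 and 2.17 CPM in mouse 3. Of 17 regulators of these genes 6 rose in Pax7+ iMPCs, 4 in Pax7- iMPCs and 8 in ASC with none falling, and 2 rose and 4 fell in MEFs. Mef2c, a MEF2 factor of differentiating muscle, had 15.0, 163, 621 and 10.8 CPM, against 5.20 and 1.54 CPM in QSC, and rose by 2.15, 5.60 and 7.53 in Pax7+ iMPCs, Pax7- iMPCs and ASC (edgeR adjusted p = 0.0296, 5.13e-05 and 4.83e-06). Prkag3, the AMP kinase subunit of glycolytic fibres, had 0.804, 7.53, 67.1 and 0.149 CPM, against 0.143 and 0 CPM in QSC. Esrra, an oestrogen-related receptor of oxidative metabolism, rose in all 4 comparisons, at 53.2, 35.3, 40.4 and 21.7 CPM, against 3.05 and 3.84 CPM in QSC, and Ppargc1b, its coactivator, rose in Pax7+ iMPCs by 3.12 ± 0.77 (edgeR adjusted p = 0.00838), to 59.2 CPM. Across the 84 tested pathway genes 18 rose and 7 fell in Pax7+ iMPCs, 23 and 2 in Pax7- iMPCs, 30 and 4 in ASC and 11 and 14 in MEFs, beside 11.3% and 9.31%, 12.1% and 6.57%, 11.8% and 8.24%, and 11.3% and 8.03% of all tested genes. The median log2 difference of the 84 genes was 0.75, 0.87, 1.3 and -0.32, against -0.03, 0.15, 0 and 0 for all genes.

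The genes with the most similar profile over the 6 libraries were found by the root mean square difference of centred log2 CPM, a description that carries no test. Tcap was nearest to Mb, at 0.756, followed by Padi2 at 1.13 and Gpr97 at 1.23. Tecrl (0.502), Unc45b (0.623), a myosin chaperone, and Hspb2 (0.708), a muscle small heat shock protein, were nearest to Ckm. Ache, the acetylcholinesterase of the neuromuscular junction, was nearest to Pygm, at 0.453, followed by Popdc3 at 0.627 and Cers1 at 0.694. Prkg2 (0.413), Nrn1 (0.613) and Capn1 (0.643) were nearest to Ak1, and Tspan32 (0.628), Fabp3-ps1 (0.642) and Gdf6 (0.688) to Fabp3. Ckb lay nearest to 5830416P10Rik (0.197), Gm2694 (0.246) and Tbx18 (0.247), and Ckmt1 to Alg8 (0.196), Zfp641 (0.218) and Fastkd2 (0.237). The Ckmt1 profile rests on at most 12 counts in any library, so its neighbours say little. Rab44 (0.763), Gm15440 (0.788) and Asb15 (0.816) were nearest to Ckmt2, and Gm16534 (0.306), F2 (0.482) and Cysltr1 (0.5) to Ampd1. Of the other members the nearest to Ckm was Ampd1, at 1.16, which ranked 23 among 17115 genes. The nearest other member ranked 21 for Mb, 62 for Pygm, 86 for Ampd1 and 170 for Ckmt2. It ranked 305 for Fabp3, 2554 for Ak1, 8181 for Ckb and 9023 for Ckmt1.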

How the data were processed

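RNA was polyA-selected and made into libraries with a directional kit, per the labels' protocols. The authors deposited read counts per gene and RPKM for 6 libraries; mm9, Picard 1.100, STAR 2.3.0, HTSeq 0.6.0 and edgeR are named in the submitters' processing notes. The gene lengths implied by the deposited RPKM were equal in all libraries. Whether counting used the strand is not given in the sources used here.

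Counts were fitted with edgeR 4.0.16 in R 4.3.3: TMM scaling, filterByExpr with a minimum count of 10, 1 coefficient per group over all 6 libraries (1 residual degree of freedom, prior 16.3), quasi-likelihood F tests, with p-values adjusted by Benjamini-Hochberg over 17116 genes with a threshold of 0.05. The spread comes from the QSC mice alone. SE is the log2 fold change divided by the square root of F, log2 CPM used a prior count of 2, and the fit was tested on simulated data. Comparisons of lone libraries carry exact 95% intervals that, like the floor of 3 counts, cover counting error only. RPKM served for shares within families; those of the adenylate kinases are not reported here.

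The 9 genes and the 9 pathway and 11 marker lists (200 of 204 entries matched) were chosen with earlier results of these data known. Named genes are the members, their family paralogs, up to 3 rising and 3 falling called genes per pathway list and comparison, the 3 nearest profiles of each member and marker genes; Gamt and Slc6a8 were added after their values were seen. Promoters are RefSeq windows of GRCm38.p6, matched by symbol. Alternatives were other size factors, other filters, DESeq2 1.42.0, a fit of fewer libraries, a preset coefficient of variation of 0.4, other minimums and prior counts, deposited RPKM, and each QSC mouse left out.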

Additional observations from a re-analysis of the deposited data

How the results depend on the processing

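No paired analysis was possible because the QSC libraries are numbered 1 and 3 and each other group has 1 library, so that no pair of groups shares more than 1 number. Ak1 rose in all 4 comparisons, and Ckm, Ckb, Pygm, Mb and Fabp3 rose in ASC, under every alternative run with a test. Scaling by library size alone left 0 members falling in Pax7+ iMPCs and 1 in MEFs, and 531, 329, 501 and 461 of all genes falling in Pax7+ iMPCs, Pax7- iMPCs, ASC and MEFs, where TMM gave 1593, 1124, 1411 and 1374; with 1998, 2141, 1868 and 1836 genes rising, against 1931, 2065, 2021 and 1938. It also turned the sign of values that passed no test: Ckb (0.018) and Pygm (0.53) in Pax7+ iMPCs and Mb (0.41) and Fabp3 (0.48) in Pax7- iMPCs. With only QSC and the library compared in the fit, 0 members fell in Pax7+ iMPCs and 2 in MEFs. A preset coefficient of variation of 0.4 gave 2 rising members in Pax7+ iMPCs, Pax7- iMPCs and MEFs, and 3097, 3626, 3352 and 3332 genes rising and 3484, 2708, 3182 and 3161 falling in Pax7+ iMPCs, Pax7- iMPCs, ASC and MEFs. The added riser was Ckm in Pax7- iMPCs. In Pax7+ iMPCs and MEFs it was Ckmt1, which is near the limit of detection, on 12 and 4 counts against 0 and 0 in QSC. By the 4-fold rule, members lower in Pax7+ iMPCs than in QSC numbered 0 with library size scaling and 2 with a minimum of 1 CPM, members higher in Pax7- iMPCs 1 with DESeq2-style factors, members higher in MEFs 2 with library size scaling or deposited RPKM, and members lower in MEFs 4 with a minimum of 1 CPM. Pax7+ against Pax7- iMPCs, 2 were lower with library size scaling and 3 with a minimum of 1 CPM. Against MEFs, 1 was lower in Pax7+ iMPCs with library size scaling, DESeq2-style factors or RPKM, and 4 were higher in Pax7- iMPCs with a minimum of 1 CPM. The causes were not tested. Leaving out a QSC mouse leaves no residual degrees of freedom and so no test; the 4-fold counts then ranged from 1 to 2 lower in Pax7+ iMPCs (2 without mouse 3), 1 to 3 higher in Pax7- iMPCs (1 without mouse 3), 7 to 8 higher in ASC, and 1 to 2 higher (2 without mouse 1) and 1 to 2 lower (2 without mouse 3) in MEFs. Depth limits Ckmt1, Ckmt2 and Ampd1 in most libraries, and Ckm and Mb in MEFs.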
